A study of Homo sapiens with 12 samples.

Results

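The red cell membrane and glycophorin genes described here are GYPB, GYPC, ANK1, SPTB, SLC4A1, RHAG, EPB42 and HEMGN. They were taken by symbol from a table of read counts for 36601 genes, and each of the 8 symbols matched 1 row. All 8 passed the filter on low counts, which kept 20183 genes. RNA was sequenced from wild-type H9 cells, a human embryonic stem cell line, under cytokine-induced differentiation toward γδ T cells. There were 3 libraries on each of 4 days of culture: day 10, labelled hematopoietic progenitor cells, days 15 and 20, both labelled T progenitor cells, and day 25, labelled mature γδ T cells. Before day 10 all cultures had been given CHIR99021, BMP4, Activin A and the Rock inhibitor Y-27632, then VEGF and bFGF, then these with Flt3L, IL-7, SCF and SB431542. From day 10 the medium was MEM-α with FBS, GlutaMAX, MAP, SCF, IL-7, Flt3L and DLL4, a Notch ligand, so the day 15, 20 and 25 libraries follow this medium and the day 10 libraries precede it. The cells come from 1 line, and the labels do not say whether the 3 libraries of a day come from separate cultures. P-values therefore speak only to how far these libraries vary, and that variation may be technical.

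The membrane of a red cell is held in shape by a mesh of spectrin that lies under it. Ankyrin ties the mesh to band 3, the anion exchanger that carries bicarbonate across the membrane, and protein 4.2 strengthens that link. Glycophorins are sialic acid-rich proteins of the cell surface that carry blood group antigens, and glycophorin C ties a second junction of the mesh to the membrane through protein 4.1. The Rh-associated glycoprotein is a channel-like protein that sits with the Rh proteins near band 3. HEMGN encodes hemogen, a nuclear protein of blood-forming cells that is not part of the membrane. Faults in several of these genes are known causes of inherited spherocytosis, in which red cells lose membrane surface.

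The libraries held 27026196 to 39811230 counts. Levels are counts per 1000000 counts (CPM) after TMM scaling, with the mean ± SD of 3 libraries, and a change was called at an adjusted p under 0.05. Markers of T cells were divided. CD3E and CD3G had 0 counts on days 10 and 15, CD3D and CD3G had 0 counts on day 25, and on day 20 CD3D and CD3E had 29 and 33 counts over the 3 libraries. The γδ receptor genes went higher and then lower again. Mean TRGC1 was 1.69 CPM on day 10, 24.7 on day 20 and 10 on day 25. Mean TRGC2 was 0.717, 13.9 and 4.9 on those days. Mean TRDC was 0.109 on day 10, 5.81 on day 15 and 0.378 on day 25. Of the 13 T cell markers, 8 were tested, and on day 20 against day 10, 6 were higher and 1 lower. Of all tested genes 36.7% were higher and 34.2% lower in that comparison. On day 25 against day 20, none of these markers was higher and 6 were lower, beside 24.5% and 25.1% of all tested genes. On day 25 against day 10, 5 were higher and 2 lower, beside 38.6% and 36%. The 13 summed to between 19.6 and 50.3 CPM in any library. The 12 myeloid markers summed to between 645 and 658 CPM on day 10, between 5935 and 6218 on day 15, between 20016 and 20408 on day 20 and between 14923 and 15312 on day 25. In RNA from mixed cells, fewer cells of a type and less RNA per cell cannot be told apart.

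Every one of the 8 genes was lower on day 25 than on day 10, but they took different routes. GYPB and SLC4A1 were highest on day 10, while ANK1, SPTB, RHAG, EPB42 and HEMGN were highest on day 15. For SPTB and RHAG this depended on the scaling. With libraries scaled by their totals alone, the log2 change to day 15 was −0.35 for SPTB, a called fall, and 0.07 for RHAG, not called. GYPC alone among the 8 fell, rose and fell again, and its libraries lay between 14.9 and 41.2 CPM throughout. The 8 genes together took 0.0923 to 0.0958% of all counts on day 10, 0.119 to 0.12% on day 15, 0.00868 to 0.00952% on day 20 and 0.00336 to 0.00349% on day 25.

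**Figure D1:**
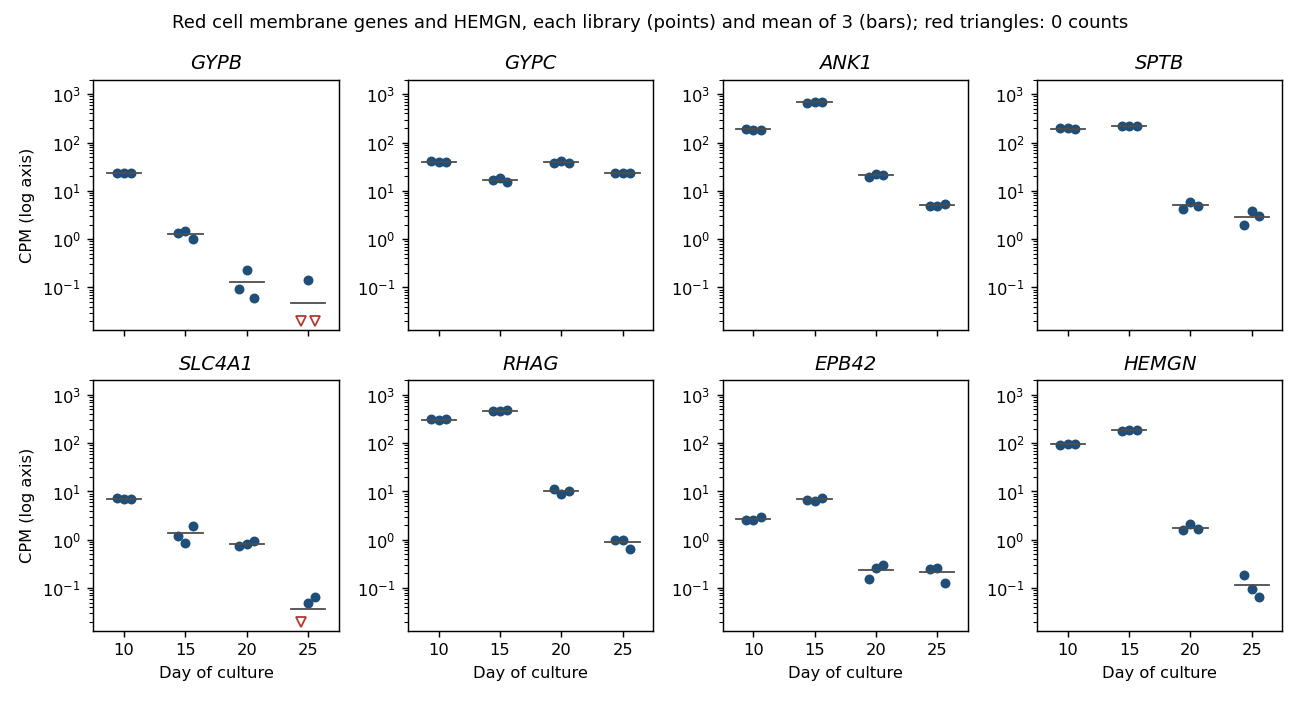
Level of each of the 8 genes in every library, in CPM on a log axis, against day of culture. Points are libraries, bars are means of 3, and red triangles at the bottom mark libraries with 0 counts. ANK1 reached a mean of 679 CPM on day 15 and RHAG 470.1, whereas GYPB had already dropped to 1.25.

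Upstream sequences are shown for a gene highest on day 10 (GYPB) and for 3 genes highest on day 15 (SPTB, RHAG and HEMGN), because both kinds carry the short word that GATA factors are known to bind. Windows were taken from RefSeq entries on GRCh38.p14 for 6 of the 8 genes, with 9 start sites. No window was included for ANK1 or SLC4A1, which does not mean that these genes lack a RefSeq entry. The counts of words below therefore say nothing about their upstream sequences and do not cover all 8 genes. Each sequence below is the 250 bases before 1 start site, 5′ to 3′ on the gene's own strand, with every AGATAA on either strand in capitals, together with its variants that begin with T, end with G or do both.
GYPB, chr4:144019381-144019630, minus strand: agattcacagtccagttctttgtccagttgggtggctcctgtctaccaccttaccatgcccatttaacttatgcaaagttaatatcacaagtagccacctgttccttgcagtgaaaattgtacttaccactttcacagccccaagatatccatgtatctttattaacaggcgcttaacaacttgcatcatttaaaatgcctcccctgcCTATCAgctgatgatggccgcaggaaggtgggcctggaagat
SPTB, chr14:64879908-64880157, minus strand: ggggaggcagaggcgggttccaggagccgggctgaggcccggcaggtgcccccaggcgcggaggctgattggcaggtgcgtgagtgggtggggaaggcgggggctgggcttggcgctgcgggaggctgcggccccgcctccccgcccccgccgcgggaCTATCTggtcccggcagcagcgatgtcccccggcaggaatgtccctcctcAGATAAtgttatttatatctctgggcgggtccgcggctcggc
RHAG, chr6:49636840-49637089, minus strand: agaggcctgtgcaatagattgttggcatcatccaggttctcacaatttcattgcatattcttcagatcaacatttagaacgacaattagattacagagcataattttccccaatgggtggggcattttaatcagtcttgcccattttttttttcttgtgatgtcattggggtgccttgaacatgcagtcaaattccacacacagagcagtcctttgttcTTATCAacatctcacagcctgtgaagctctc
HEMGN, chr9:97944853-97945102, minus strand: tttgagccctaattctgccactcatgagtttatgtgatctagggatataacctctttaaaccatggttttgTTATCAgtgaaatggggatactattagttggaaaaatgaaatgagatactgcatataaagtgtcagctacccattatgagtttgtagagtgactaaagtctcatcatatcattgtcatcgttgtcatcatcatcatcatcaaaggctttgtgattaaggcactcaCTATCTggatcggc
The GYPB word begins 42 bases before the start. Those of SPTB begin 92 and 42 bases before it, that of RHAG 31, and those of HEMGN 179 and 14. GYPC had 1 such word, beginning 64 bases before its start, and EPB42 had 2, beginning 208 and 61 bases before. Of the 9 windows, 8 held at least 1 word, against 22.3% of the 35116 promoters in the same table. The windows are not independent: those of GYPB's 2 starts overlap and share the word shown, which begins 77 bases before the other start. The window without a word is that of SPTB's other start, so a gene with 2 starts had more than 1 chance of a match. The word CACCC, on either strand, was in 6 of the 9 windows and in 54.7% of all promoters, and it overlapped none of the GATA words. A match is a description of the letters and not of binding. The GATA words were found alike in GYPB and GYPC, which fell on day 15, and in SPTB, RHAG, EPB42 and HEMGN, which rose then. SPTB's direction and RHAG's call at that step depended on the scaling, as given below.

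The glycophorin genes GYPB and GYPC behaved differently from each other. GYPB (ENSG00000250361, chromosome 4, 143996104 to 144019345, GRCh38) encodes glycophorin B, which carries the S and s antigens. Its 3 libraries held 22.9, 23.7 and 23.1 CPM on day 10 and 1.31, 1.45 and 1 CPM on day 15. They held 0.0912, 0.229 and 0.0597 CPM on day 20, and 0, 0.145 and 0 CPM on day 25. The day 10 libraries lay far above all others, and the last libraries rest on very few reads: 13 counts in all on day 20 and 6 on day 25. The day 25 libraries with 0 counts allow a level of up to 0.0945 CPM in replicate 1 and 0.096 CPM in replicate 3, which is what 3 counts would give. GYPB fell 18.6-fold from day 10 to day 15 (log2 −4.22 ± 0.218 SE, adjusted p = 3.27e-21) and a further 9.44-fold to day 20 (log2 −3.24 ± 0.418, adjusted p = 4.12e-09). Without day 20 replicate 2 that second fall was −3.97 on the log2 scale, and the weakest value with any library left out was −2.9. From day 20 to day 25 its log2 change of −1.11 ± 0.753 was not called (adjusted p = 0.23), and the libraries overlapped. Without day 25 replicate 2, which holds all 6 counts of that day, the fall was called (adjusted p = 0.00468). With any library left out, this log2 change lay between −5.01 and −0.37.

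GYPB has a close relative, GYPE, on the same chromosome. Of all 50-base stretches of GYPB's transcripts, 1.05% also occur in GYPE and 12.7% in any other gene, so most of the shared stretches lie outside GYPE. GYPB's counts are uncertain where the counting could split shared reads. GYPE went from 42.7 ± 0.774 to 5.57 ± 0.415 CPM by day 15, 7.69-fold lower (adjusted p = 2.4e-24), and to 0.763 ± 0.126 and 0.053 ± 0.0488 on the later days.

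GYPC (ENSG00000136732, chromosome 2, 126655933 to 126696670) encodes glycophorins C and D, is unrelated in sequence to GYPB and is known to be made in many cell types. It shared no 50-base stretch with any other gene. Its libraries held 40.5, 39.9 and 39.7 CPM on day 10, 17, 18.2 and 14.9 on day 15, 38.4, 41.2 and 38 on day 20, and 23.9, 23.3 and 23.8 on day 25. Day 15 was the low point, and the day 10 and day 20 libraries overlapped. GYPC fell 2.4-fold to day 15 (log2 −1.27 ± 0.078, adjusted p = 1.29e-18), rose 2.35-fold to day 20 (log2 1.24 ± 0.078, adjusted p = 2.96e-18) and fell 1.66-fold to day 25 (log2 −0.73 ± 0.073, adjusted p = 1.4e-11). Days 10 and 20 did not differ beyond the spread (log2 −0.03 ± 0.071, adjusted p = 0.716). It was the only one of the 8 genes higher on day 25 than on day 15, by 1.42-fold (adjusted p = 3.71e-07). Counts of GYPC against those of GYPB in the same library, a ratio that needs no scaling, were 1.68 to 1.77 on day 10 and 12.5 to 14.8 on day 15.

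Among the skeleton genes, ANK1 rose and then fell steeply. ANK1 (ENSG00000029534, chromosome 8, 41653220 to 41896762) encodes the red cell ankyrin. Its libraries held 192, 184 and 186 CPM on day 10, 674, 686 and 677 on day 15, 19.1, 22.3 and 21 on day 20, and 4.95, 4.92 and 5.21 on day 25. No day's libraries overlapped another's. ANK1 rose 3.62-fold to day 15 (log2 1.86 ± 0.038, adjusted p = 2.15e-36), fell 32.6-fold to day 20 (log2 −5.03 ± 0.046, adjusted p = 2.36e-49) and fell 4.14-fold to day 25 (log2 −2.05 ± 0.067, adjusted p = 1.02e-27). On day 15, 98.6% of tested genes lay below it in CPM, and on day 25 41.5%. These shares are not corrected for gene length, so they do not rank ANK1's level against other genes.

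SPTB (ENSG00000070182, chromosome 14, 64746283 to 64879907) encodes the beta spectrin of red cells, a chain of the mesh under the membrane. Its libraries held 199, 199 and 187 CPM on day 10, 218, 223 and 225 on day 15, 4.26, 5.9 and 4.78 on day 20, and 1.98, 3.74 and 3.01 on day 25. Days 10 and 15 were close to each other, and both lay far above days 20 and 25. The log2 change of 0.19 ± 0.061 to day 15 was called as a 1.14-fold rise (adjusted p = 0.00843), but it was a called fall when libraries were scaled by their totals alone (log2 −0.35, adjusted p = 2.42e-05). The call was also lost with DESeq2's test (adjusted p = 0.254), with the libraries of those days fitted alone (log2 0.01, adjusted p = 0.87), with no filter on low counts (log2 −0.02) and without day 10 replicate 3 (adjusted p = 0.0582). The fall to day 20 was 44.4-fold (log2 −5.47 ± 0.089, adjusted p = 1.99e-26), and a further 1.68-fold fall followed by day 25 (log2 −0.75 ± 0.146, adjusted p = 0.000128). SPTB overlaps PLEKHG3 on the opposite strand, whose counts went from 10522 on day 10 to 5171 on day 25, and whether counting used strand is not given in the sources used here.

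ANK1 and SPTB did not keep 1 proportion. Each library held 0.928 to 0.995 ANK1 counts for each SPTB count on day 10, 3.01 to 3.1 on day 15, 3.78 to 4.49 on day 20 and 1.32 to 2.49 on day 25. These within-library ratios are descriptions: an exact permutation test of 3 libraries against 3 cannot give a p under 0.10.

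**Figure D2:**
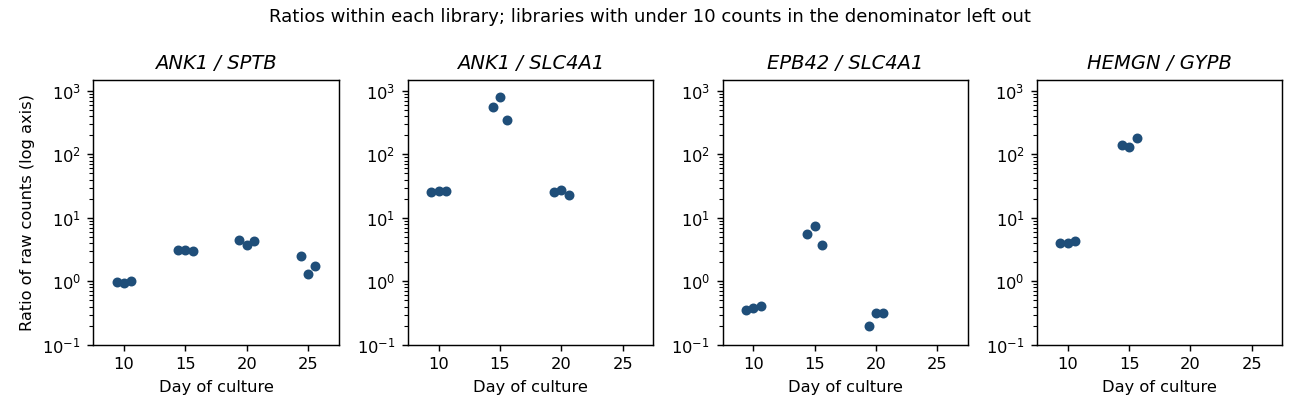
Ratios of raw counts between 2 genes of the same library, on a log axis, against day of culture, 1 point for each library with at least 10 counts of the denominator gene. ANK1 counts per SLC4A1 count were 25.7 to 26.9 on day 10, 344 to 788 on day 15 and 22.6 to 27.8 on day 20, and HEMGN counts per GYPB count went from between 4.01 and 4.26 to between 130.3 and 184 by day 15.

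Of the band 3 and Rh complex genes, SLC4A1 and EPB42 went opposite ways on day 15. SLC4A1 (ENSG00000004939, chromosome 17, 44248385 to 44268141) encodes band 3. Its libraries held 7.49, 6.85 and 7.12 CPM on day 10, 1.22, 0.87 and 1.97 on day 15, 0.76, 0.802 and 0.926 on day 20, and 0, 0.0482 and 0.064 on day 25. Day 10 stood above all other days, and the day 15 and day 20 libraries overlapped. SLC4A1 fell 5.21-fold to day 15 (log2 −2.38 ± 0.282, adjusted p = 4.57e-10). Its log2 change of −0.72 ± 0.321 to day 20 passed narrowly (adjusted p = 0.0403) and was not called under 6 of the other settings or without any 1 of 6 libraries: each of the 3 of day 10, day 15 replicate 3, and day 20 replicates 1 and 2. Without day 15 replicate 3 it was −0.34 (adjusted p = 0.399). From day 20 to day 25 it fell 19.7-fold (log2 −4.3 ± 0.557, adjusted p = 1.06e-08), where day 25 held 4 counts in all.

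EPB42 (ENSG00000166947, chromosome 15, 43197227 to 43221125) encodes protein 4.2, a relative of transglutaminases that has no enzyme activity. Its libraries held 2.6, 2.56 and 2.94 CPM on day 10, 6.7, 6.47 and 7.39 on day 15, 0.152, 0.258 and 0.299 on day 20, and 0.252, 0.265 and 0.128 on day 25. Day 15 was the highest and the last pair of days overlapped. EPB42 rose 2.54-fold to day 15 (log2 1.35 ± 0.253, adjusted p = 7.93e-06) and fell 28.5-fold to day 20 (log2 −4.83 ± 0.335, adjusted p = 5.79e-17). The log2 change from day 20 to day 25 was −0.11 ± 0.469 and was not called (adjusted p = 0.87). Counts of EPB42 for each SLC4A1 count were 0.347 to 0.412 on day 10, 3.76 to 7.44 on day 15 and 0.2 to 0.323 on day 20. Of the 50-base stretches of EPB42's transcripts, 12.5% also lie in AC068724.4, an overlapping gene on the same strand that has no row among the counts.

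RHAG (ENSG00000112077, chromosome 6, 49605158 to 49636884) encodes the Rh-associated glycoprotein, without which the Rh proteins are not held at the surface. Its libraries held 315, 296 and 316 CPM on day 10, 468, 465 and 477 on day 15, 11, 8.85 and 10.2 on day 20, and 1.01, 0.988 and 0.64 on day 25. No day overlapped another. RHAG rose 1.52-fold to day 15 (log2 0.61 ± 0.04, adjusted p = 1.9e-17), a call that was lost under scaling by library totals (log2 0.07, adjusted p = 0.11). It fell 47.1-fold to day 20 (log2 −5.56 ± 0.055, adjusted p = 6.91e-48) and 11.2-fold to day 25 (log2 −3.48 ± 0.12, adjusted p = 8.69e-27). The Rh genes RHD and RHCE, near-identical neighbours whose reads counting may split, went from 12.8 ± 1.08 to 66.7 ± 2.74 CPM and from 14.4 ± 0.576 to 21.2 ± 1.48 CPM by day 15. RHD was 5.21-fold higher on day 15 (adjusted p = 3.32e-25). RHCE was 1.47-fold higher (adjusted p = 0.000167), a call that scaling by library totals removed (adjusted p = 0.877). By day 20 RHD had fallen 38.5-fold (adjusted p = 4.4e-34) and RHCE 30.1-fold (adjusted p = 9.92e-27).

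HEMGN (ENSG00000136929, chromosome 9, 97926791 to 97944856), the nuclear gene of the 8, followed RHAG and ANK1 in direction. Its libraries held 92.4, 95 and 98.5 CPM on day 10, 182, 189 and 185 on day 15, 1.58, 2.12 and 1.64 on day 20, and 0.189, 0.0964 and 0.064 on day 25. No day overlapped another. HEMGN rose 1.94-fold to day 15 (log2 0.96 ± 0.051, adjusted p = 4.94e-21), fell 103-fold to day 20 (log2 −6.69 ± 0.081, adjusted p = 5.81e-45) and fell 15.1-fold to day 25 (log2 −3.91 ± 0.284, adjusted p = 1e-15). Its day 25 level rests on 12 counts over the 3 libraries.

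Counted by step, 5 of the 8 genes were called higher and 3 lower from day 10 to day 15, where 73.2% of all tested genes were called, 42.4% higher and 30.8% lower. The median log2 change was 0.4 for the 8 genes and 0.2 for all genes. From day 15 to day 20, 1 was higher and 7 were lower, with 76.6% of all genes called, 40.6% higher and 36% lower. The medians were −4.93 and 0.1. A called fall of at least 2-fold was found in 6 of the 8, against 22.2% of all genes. From day 20 to day 25, 6 were lower, none was higher and 2 were not called, with 49.7% of all genes called, 24.5% higher and 25.1% lower, and medians of −1.58 and −0.03. The steps share libraries: day 15 enters the first and the second, and day 20 the second and the third. Scaling by library totals in place of TMM moved the median of all genes by −0.53 at the first step, 0.62 at the second and −0.16 at the third. The share of higher changes among all calls then went from 57.9 to 39.2%, from 53 to 72.1% and from 49.4 to 31.5%, and 3 of the 8 genes were higher and 4 lower at the first step.

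**Figure D3:**
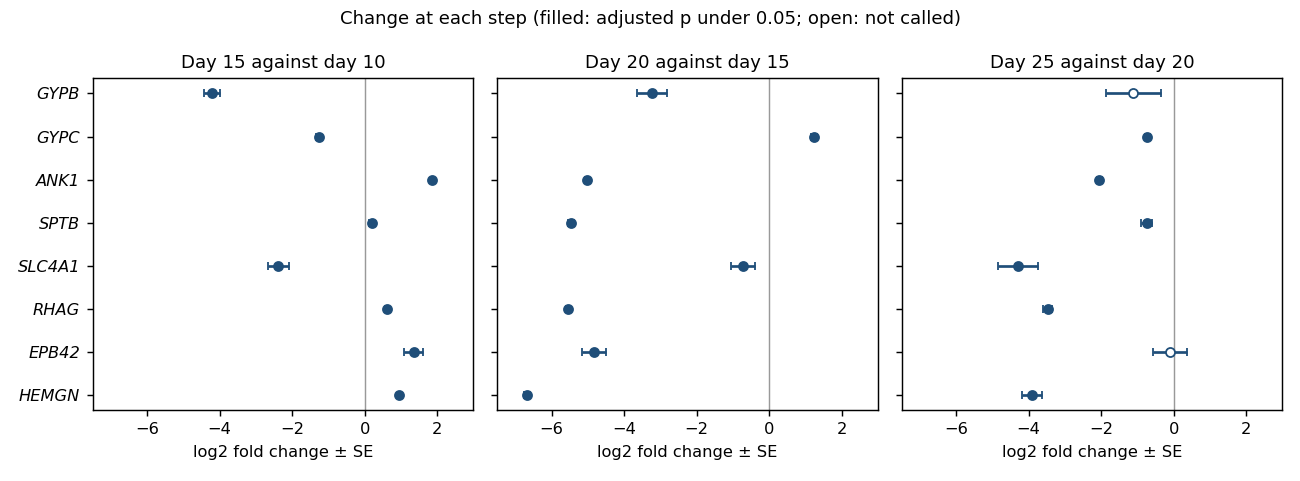
Log2 fold change ± SE of each of the 8 genes at the 3 steps of the culture, with filled points for changes called at an adjusted p under 0.05. At day 20 against day 15, ANK1, SPTB, RHAG, EPB42 and HEMGN lie between −6.69 and −4.83 and GYPC at 1.24, and the SPTB point at day 15 against day 10 turns negative under scaling by library totals.

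Over the whole course, day 25 against day 10, all 8 were called lower, beside 74.5% of all genes called, 38.6% higher and 36% lower. The fall was at least 2-fold in 7 of the 8, against 16.5% of all genes. HEMGN was 802-fold lower, GYPB 381-fold, RHAG 346-fold, SLC4A1 169-fold, SPTB 65.4-fold, ANK1 37.3-fold, EPB42 12.1-fold and GYPC 1.69-fold. GYPB's value rests on day 25 replicate 2: without it the day 25 libraries hold 0 counts, and the fitted log2 change went from −8.57 to −12.47, beyond that of HEMGN, a value that depends on the fit's prior count and is no bound. GYPB on day 25 against day 15 likewise went from −4.35 to −8.24, and on day 20 against day 10 from −7.46 to −8.19 without day 20 replicate 2. With other libraries left out, GYPB's falls were as weak as −8.07 on day 25 against day 10 and −3.85 on day 25 against day 15. On day 20 against day 10 the weakest was −7.13. On day 20 against day 10, 7 were lower and GYPC was not called, with 70.9% of all genes called, 36.7% higher and 34.2% lower. On day 25 against day 15, 7 were lower and GYPC was higher, with 78% of all genes called, 40.2% higher and 37.8% lower. Higher changes made up 51.6% of all calls in that comparison, and 66.6% under library totals. A joint test over the 4 days called all 8, beside 90.5% of all genes.

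Levels of different genes can be set side by side only per length, here CPM per kilobase of exon. RHAG led on day 10 at 115 ± 4.09 and on day 15 at 175 ± 2.38, followed on both days by HEMGN at 39.8 ± 1.28 and 77.4 ± 1.43. On day 20 GYPC led at 10.3 ± 0.462 with RHAG at 3.72 ± 0.398. On day 25 GYPC led at 6.21 ± 0.0913 with ANK1 at 0.465 ± 0.0152. SLC4A1 was the lowest of the 8 on day 15 at 0.264 ± 0.109 and on day 25 at 0.00729 ± 0.0065. The leading gene of each day was the same when coding length or the longest transcript was used as the length, while GYPC moved from the sixth place to the second on day 10 under coding length. The day 10 order of SPTB and GYPB turned with the length used: they stood at 13.2 ± 0.476 and 12.4 ± 0.21 per kilobase of exon, at 27.2 and 42.5 per kilobase of coding length, and at 19.1 and 36.8 per kilobase of the longest transcript.

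The other genes of the membrane skeleton were divided. Of 13 tested, 9 rose, 2 fell and 2 were not called on day 15, and under scaling by library totals 7 rose and 5 fell. The median log2 change was 0.64, beside 0.2 for all genes, of which 42.4% rose and 30.8% fell. DMTN, which encodes the actin-bundling protein dematin, rose 5.54-fold from 326 ± 1.32 to 1809 ± 103 CPM (adjusted p = 4.93e-38). MPP1, whose protein p55 links protein 4.1 and glycophorin C, rose 5.31-fold, ADD3, an adducin, 5.15-fold, and EPB41, which encodes protein 4.1, 5.04-fold from 131 to 659 CPM. From day 15 to day 20, 3 rose and 10 fell, beside 40.6% and 36% of all genes. Under library totals 5 rose and 8 fell. DMTN fell 66-fold, MPP1 11.3-fold and EPB41 6.9-fold. From day 20 to day 25, 5 rose, 6 fell and 2 were not called, and with library totals 1 rose and 8 fell. Of all genes 24.5% rose and 25.1% fell then. DMTN fell 5.3-fold again, while ADD2, another adducin, was 3.66-fold higher at 6.01 CPM, having been lowest on day 15 at 0.75 CPM. On day 25 against day 10, 3 were higher, 9 lower and 1 not called, beside 38.6% of all genes higher and 36% lower. DMTN was 63.2-fold lower and STOM, which encodes stomatin, 2.9-fold.

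Of 28 other surface and transport genes, 27 were tested, since ICAM4 had 0 counts in every library. On day 15, 14 rose, 9 fell and 4 were not called, with 10 rising and 12 falling under library totals. The median log2 change was 0.3, beside 0.2 for all genes, of which 42.4% rose and 30.8% fell. KEL, the gene of the Kell blood group protein, rose 17.8-fold from 99.2 ± 2.58 to 1770.4 ± 13.4 CPM (adjusted p = 3.11e-27), and SEMA7A, which carries the John Milton Hagen blood group, rose 9.69-fold to 63.2 CPM. GYPE fell at this step, as given above. From day 15 to day 20, 12 rose and 13 fell, beside 40.6% and 36% of all genes. Under library totals 14 rose and 11 fell. KEL fell 78.9-fold to 22.4 ± 2.91 CPM, and BCAM, the gene of the Lutheran blood group protein, rose 25.7-fold to 26.7 CPM. From day 20 to day 25, 8 rose and 15 fell, beside 24.5% and 25.1% of all genes. Under library totals 6 rose and 17 fell. KEL fell 9.53-fold and AQP1, a water channel, 5.13-fold, while KCNN4, a calcium-activated potassium channel, rose 11.5-fold to 56.8 CPM and ABCG2, a transporter, 5.1-fold to 9.45 CPM. On day 25 against day 10, 13 were higher and 14 lower, beside 38.6% and 36% of all genes. Among those lower were GYPE at 823-fold, RHCE at 59.3-fold and KEL at 42.2-fold.

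**Figure D4:**
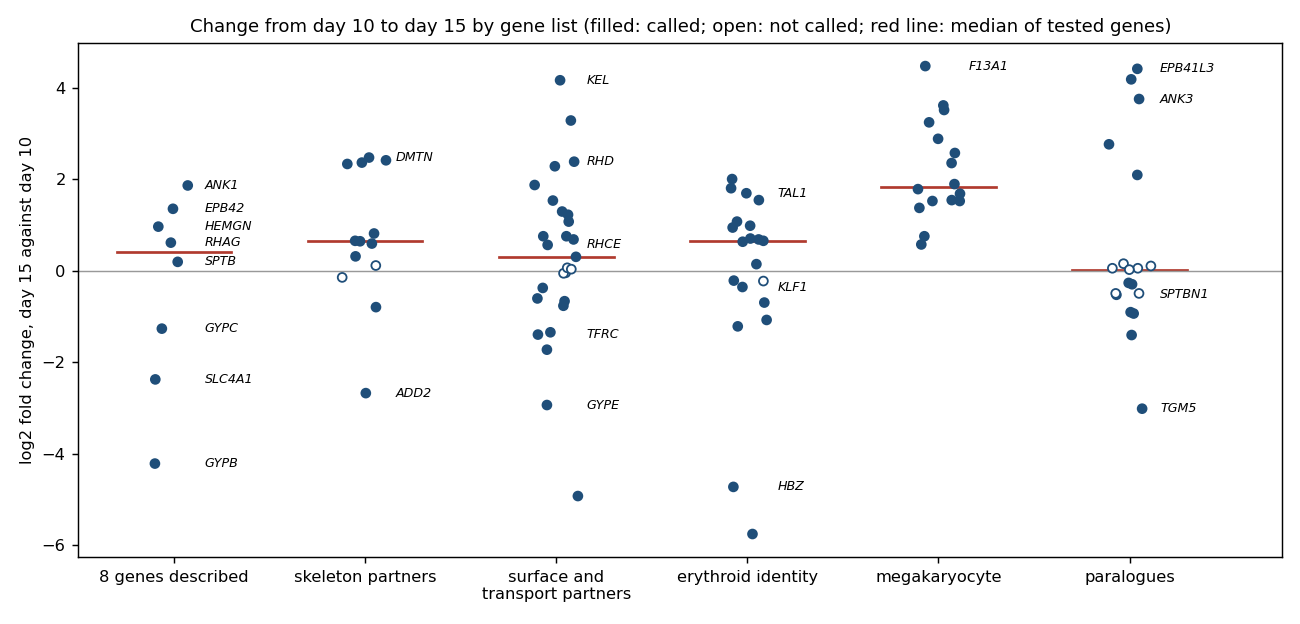
Log2 fold change of day 15 against day 10 for the 8 genes and 5 other lists, 1 point per tested gene, filled where called, with the median of each list as a red line. The 16 megakaryocyte markers all lie above 0 with a median of 1.83, whereas the 8 genes spread from −4.22 (GYPB) to 1.86 (ANK1), and scaling by library totals moves the median of all genes by −0.53 at this step and puts SPTB below 0.

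Red cell genes of other kinds also moved in both directions on day 15. Of 20 tested erythroid identity genes, 12 rose, 7 fell and 1 was not called, or 9 and 8 under library totals. At this step 42.4% of all tested genes rose and 30.8% fell. GATA1, an erythroid and megakaryocytic transcription factor, went from 299 ± 1.96 to 469.9 ± 14.8 CPM, 1.57-fold higher (adjusted p = 2.85e-19). KLF1, an erythroid transcription factor, went from 47.5 ± 1.89 to 37 ± 2.8 CPM, 1.28-fold lower (adjusted p = 0.000554). HBZ, the embryonic zeta globin, fell 26.6-fold from 19.7 ± 0.679 to 0.74 ± 0.306 CPM (adjusted p = 1.78e-22), and AHSP, which encodes the chaperone of alpha globin, went from 4.93 ± 0.996 to 0.0912 ± 0.0971 CPM. From day 15 to day 20, 18 of the 20 fell and none rose, with 15 falling and 1 rising under library totals. Of all tested genes 36% fell and 40.6% rose then. AHSP, HBE1 and CA1 had 0 counts on day 25. The 21 listed erythroid genes summed to between 3105 and 3153 CPM on day 10, 6419 and 6610 on day 15, 487 and 508 on day 20, and 384 and 399 on day 25. This sum gives most weight to the genes of highest level, on day 15 TAL1 at 2383, NFE2 at 1340.1 and GFI1B at 761 CPM. It does not show the falls of KLF1, HBZ and AHSP at that step.

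Markers of megakaryocytes, the platelet-forming cells that share GATA1 with red cells, moved beside these changes. All 16 rose on day 15, 15 of them under library totals, and all 16 fell on day 20 under both scalings. Of all tested genes 42.4% rose on day 15 and 36% fell on day 20. TUBB1, the platelet tubulin, rose 12.2-fold from 387 to 4718 CPM and then fell 95.9-fold to 49.2. The 16 summed to between 8747 and 8958 CPM on day 10, 35816 and 36633 on day 15, 635 and 649.8 on day 20, and 212 and 218 on day 25, and none was at 0 on any day. Their part in the changes of ANK1, SPTB, RHAG, EPB42 and HEMGN was not tested. GYPB, GYPC and SLC4A1 fell at the step at which all 16 rose.

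Of 20 listed paralogues of the 8 genes that serve cells outside the red cell lineage, 19 were tested, and most were higher on day 25 than on day 10. On day 15, 5 rose and 7 fell, or 5 and 11 under library totals. Of all tested genes 42.4% rose and 30.8% fell at that step. From day 15 to day 20, 13 rose and 4 fell, beside 40.6% and 36% of all genes. From day 20 to day 25, 10 rose and 4 fell, beside 24.5% and 25.1%. On day 25 against day 10, 14 were higher, 3 lower and 2 not called under either scaling. The median log2 change was 2.46 beside 0.02 for all genes, of which 38.6% were higher and 36% lower. SPTAN1, the alpha spectrin of other cells, went from 58 CPM on day 10 to 60, 200.2 and 360.4 on the later days, 6.22-fold higher on day 25 than on day 10 (adjusted p = 7.42e-28). SPTBN1, a widely made beta spectrin, had day means between 181 and 262 CPM and was 1.23-fold lower on day 25 than on day 10 (adjusted p = 1.99e-08). TGM5 and EPB41L4A were the other 2 lower at the end, from 5.81 to 1.92 CPM and from 2.2 to 0.908 CPM.

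Per kilobase of exon ANK1 lay above ANK2 and ANK3 on days 10, 15 and 20 and below both on day 25. ANK1 stood at 17.4 on day 10 and 62.9 on day 15, against 0.219 and 0.235 for ANK2 and 0.56 and 7.54 for ANK3. On day 25 ANK1 was at 0.465, ANK2 at 1.24 and ANK3 at 0.604. ANK3 peaked on day 15 as ANK1 did, 13.5-fold above day 10 (adjusted p = 3.52e-40). SPTB and SPTBN1 were close on days 10 and 15, at 13.2 and 14.1 and then 15 and 9.81, and far apart on day 25, at 0.197 and 11.5. SLC4A2, the anion exchanger of many tissues, was above SLC4A1 on every day, at 10.4 against 1.39 on day 10 and 21.1 against 0.00729 on day 25. TGM2, the tissue transglutaminase related to protein 4.2, was likewise above EPB42 on every day and rose 4.96-fold from 97.8 to 485 CPM at the last step (adjusted p = 4.12e-37). The protein 4.1 relatives EPB41L1 and EPB41L3 were 20.5-fold and 13.2-fold higher on day 25 than on day 10.

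**Figure D5:**
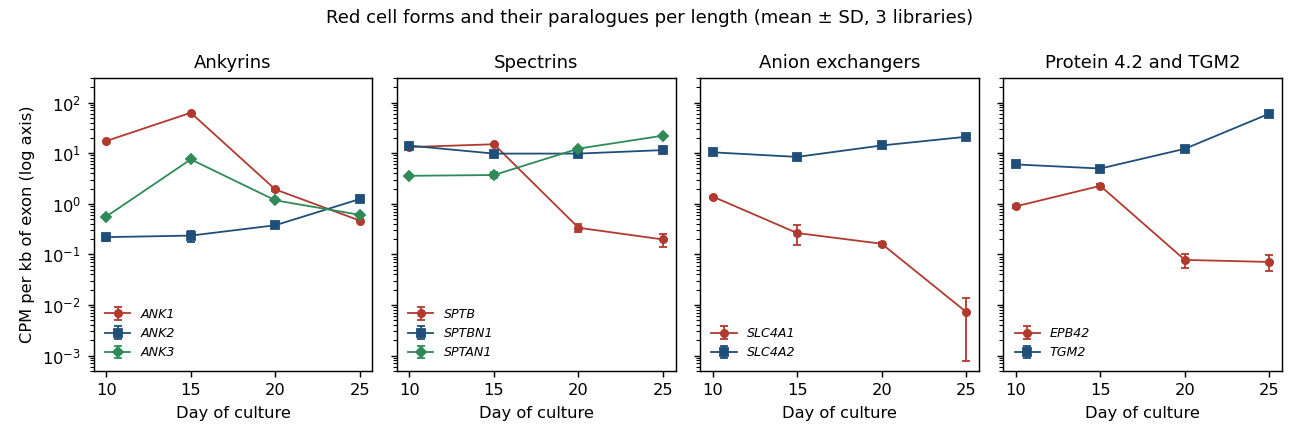
Levels per kilobase of exon, as mean ± SD of 3 libraries on a log axis, of the red cell ankyrin, beta spectrin, anion exchanger and protein 4.2 and of their paralogues, against day of culture. SPTB and SPTBN1 were near each other on day 10, at 13.2 and 14.1, and on day 25 stood at 0.197 and 11.5.

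The genes most like each of the 8 were sought by Pearson r of log2 CPM over the 12 libraries among 14333 genes. The libraries form 4 day clusters, r scores the shape of a course and not its size, and with Spearman rho none of the 3 nearest genes was the same for any of the 8, so the lists are descriptions. For ANK1 they were CAVIN2, DMTN and GP1BA, the last a platelet receptor gene, with r of 0.9991 to 0.9992. For HEMGN they included PDLIM1 (0.999) and RHAG (0.9977). RHAG had among them KSR1 (0.9989) and CMTM5 (0.9984), SPTB had ZNF101, WRNIP1 and PSRC1 (0.9978 to 0.9985) and EPB42 had SHROOM4, GUCY1B1 and RO60 (0.994 to 0.9954). GYPB's nearest included CKB (0.9914) and CCDC14 (0.9881), and SLC4A1's were NOSTRIN, WRAP53 and COL4A5 (0.984 to 0.9892). GYPC stood with SRPK1 (0.9916) and 2 ribosomal protein genes, RPS24 and RPL38 (both 0.99). RPS24 itself went from 351 CPM on day 10 to 157, 338 and 221 on the later days, the same order of days as GYPC.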

How the data were processed

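The authors deposited 1 table of raw read counts, not normalised, for 36601 genes in 12 libraries. Per the file headers, each column came from a sorted alignment file. Libraries were made by ligation-mediated sequencing from total RNA and read as single reads, per the labels' protocols. Per the submitters' processing notes, reads were placed on GRCh38. Not given in the sources used here are the aligner, counter, annotation and strand setting. All libraries carry 1 batch label.

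Groups are the days in the labels. Counts were fitted in R 4.3.3 with edgeR 4.0.16: filterByExpr with a minimum count of 10, TMM scaling (factors 0.753 to 1.17), and a robust quasi-likelihood fit over all 12 libraries without covariates. P-values were adjusted by Benjamini-Hochberg over the 20183 tested genes in each comparison. Each SE is the log2 fold change divided by the square root of F. The fit was tested on simulated counts. Replicates of a day differed beyond counting noise (chi-square per degree of freedom 3.49 to 5.16), and none was a copy. Alternatives used DESeq2 1.42.0 and limma 3.58.1. Positions and lengths are from GENCODE 29, and promoters from RefSeq. Intervals and limits from counts cover counting error only.

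The 8 genes and all lists were chosen with earlier results of these data known. Named beside the 8 were, from each list and comparison, up to 4 called genes of the largest change that reached 5 CPM on either day, paralogues with a mean of at least 5 CPM, and the 3 most alike genes. Other genes were named after their values were seen: GYPE beyond that rule, RHD, RHCE, ADD2 on day 15, GATA1, KLF1, AHSP, EPB41L4A and the T cell genes. Some genes that the rule names are not reported here. Counts of list calls under other scalings were added after seeing the data.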

Additional observations from a re-analysis of the deposited data

How the results depend on the processing

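Of 1054 recomputed log2 changes of the 8 genes, 1030 kept their direction and their side of the threshold, 16 lost the call, 1 gained it and 7 turned direction. With scaling by library totals, 3 genes instead of 5 were higher on day 15 than on day 10, and 4530 genes instead of 7271 were lower on day 20 than on day 15. SPTB on day 15 against day 10 turned to −0.35 with that scaling and to −0.02 with no filter. GYPC on day 20 against day 10, not called, turned to 0.06 with that scaling, 0 with no filter and 0.01 with the libraries of those days alone. EPB42 on day 25 against day 20, also not called, turned to 0.09 without day 20 replicate 3 and to 0.13 without day 25 replicate 3, within −0.34 to 0.13 over the 12 left-out libraries. The cause of these turns was not tested. The fall of SLC4A1 on day 20 against day 15 was −0.49 with no filter (adjusted p = 0.216), −0.66 with limma-voom (adjusted p = 0.12) and −0.1 with library totals (adjusted p = 0.778). It missed the stricter threshold of 0.01. Counts of called genes under DESeq2's size factors and test, limma-voom, both filters and each left-out library stayed within 1.5 times the main counts.

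The same replicate numbers on different days did not deviate together: 18 pairs had r from −0.0164 to 0.0156. A replicate block left 6 genes lower on day 20 instead of 7, since SLC4A1 was then at −0.69 (adjusted p = 0.0568), and it changed no other call among the 8. With it 8109 genes were higher and 7192 lower on day 20 than on day 15. Depth limits GYPB, SLC4A1, EPB42 and HEMGN on day 25, with 6, 4, 23 and 12 counts.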
